A study of Mus musculus with 16 samples.

Results

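The Eph receptors and their ephrin ligands were followed in microglia of the mouse olfactory bulb (OB). The 10 genes were taken by symbol from a table of 57010 genes, without regard to their values: the receptors Epha3, Epha4, Epha5, Epha7, Ephb1 and Ephb2 and the ligands Efna5, Efnb1, Efnb2 and Efnb3. All 10 reached 5 counts in 8 or more of the 16 libraries and were among the 18227 genes tested. WT mice were C57BL/6J animals. KI mice were of the APP-NL-G-F line on the same background, a knock-in in which the mouse App locus carries a humanised amyloid-beta sequence with the Swedish, Arctic and Iberian mutations of familial Alzheimer's disease. Both were sampled at the age of 2 months, with 4 female and 4 male libraries per genotype. The WT animals were purchased, so the origin of the animals and their genotype cannot be told apart. The bulbs were dissociated and cells were drawn out with CD11b magnetic beads, and total RNA depleted of ribosomal RNA was sequenced in bulk. The question of the experiment was whether microglia of the KI bulb differ in their transcriptome when noradrenergic axons begin to be lost there.

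Eph receptors form the largest family of receptor tyrosine kinases. Their ligands stay on the surface of the neighbouring cell: A-type ephrins are tethered by a lipid anchor, B-type ephrins span the membrane, and on contact both cells can signal, forward through the receptor and in reverse through the ephrin. The system is known best for repulsive guidance of axons, for the sorting of cells at boundaries and for the shaping of dendritic spines. In the olfactory system A-type ephrins and receptors take part in the sorting of sensory axons into glomeruli, and Epha4, unusual in binding both classes of ephrin, is found on neurons and astrocytes, where ephrin and receptor meet across the synapse.

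The libraries held between 9052932 and 18117286 counts, and levels are given as CPM, counts scaled to the library total. The 3 counts that a 0 still allows amount to 0.169 to 0.347 CPM by library, counting error only. The female and male labels matched Xist, at 547.4 CPM or more in every female library and at most 0.4483 CPM in males. The labelled cell type was checked against its markers. The 9 microglia genes (Cx3cr1, P2ry12, Tmem119, Csf1r and others) summed to 13600 to 15790 CPM in WT and 13550 to 15760 CPM in KI, with 0 of 9 called between genotypes and 0 at an unadjusted p below 0.05 in edgeR, DESeq2 and limma voom. Markers of other cells were present too. The 10 neuron genes summed to 383.9 to 789.1 CPM in WT and 535.5 to 1112 CPM in KI, and none of them was at 0 in any library. App itself averaged 419.2 ± 34.37 CPM in WT against 399.1 ± 12.73 CPM in KI (SD, n = 8 each). The authors' reference also held the human App sequence. How reads of the humanised KI segment were assigned was not examined, so the App levels may not be alike in measure.

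Per kilobase of exon, the family was led by a receptor that is not among the 10. Epha2, an EphA receptor of epithelia and vessels, reached 12.7 ± 3.57 CPM per kb over all libraries (SD, n = 16), followed by Epha6 with 5.45 ± 1.68. Of the 10 genes, the transmembrane ligand Efnb1 stood highest with 4.76 ± 0.481 CPM per kb, within the spread of Epha6. Epha5 (1.69 ± 0.405), Efnb2 (1.64 ± 0.22) and Epha4 (1.24 ± 0.336) came next, and their SD overlapped. Efnb3 lay at 1.06 ± 0.266, Epha3 at 0.715 ± 0.235, Efna5 at 0.466 ± 0.117 and Ephb1 at 0.332 ± 0.0756 CPM per kb. Epha7 (0.187 ± 0.0759) and Ephb2 (0.0847 ± 0.0338) were the lowest of the 10. Apart from Efnb1, each of the 10 lay within the joint SD of the next in this order. Epha1, Epha8, Efna1 and Efna4 never exceeded 9 counts in a library and were not tested.

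**Figure D1:**
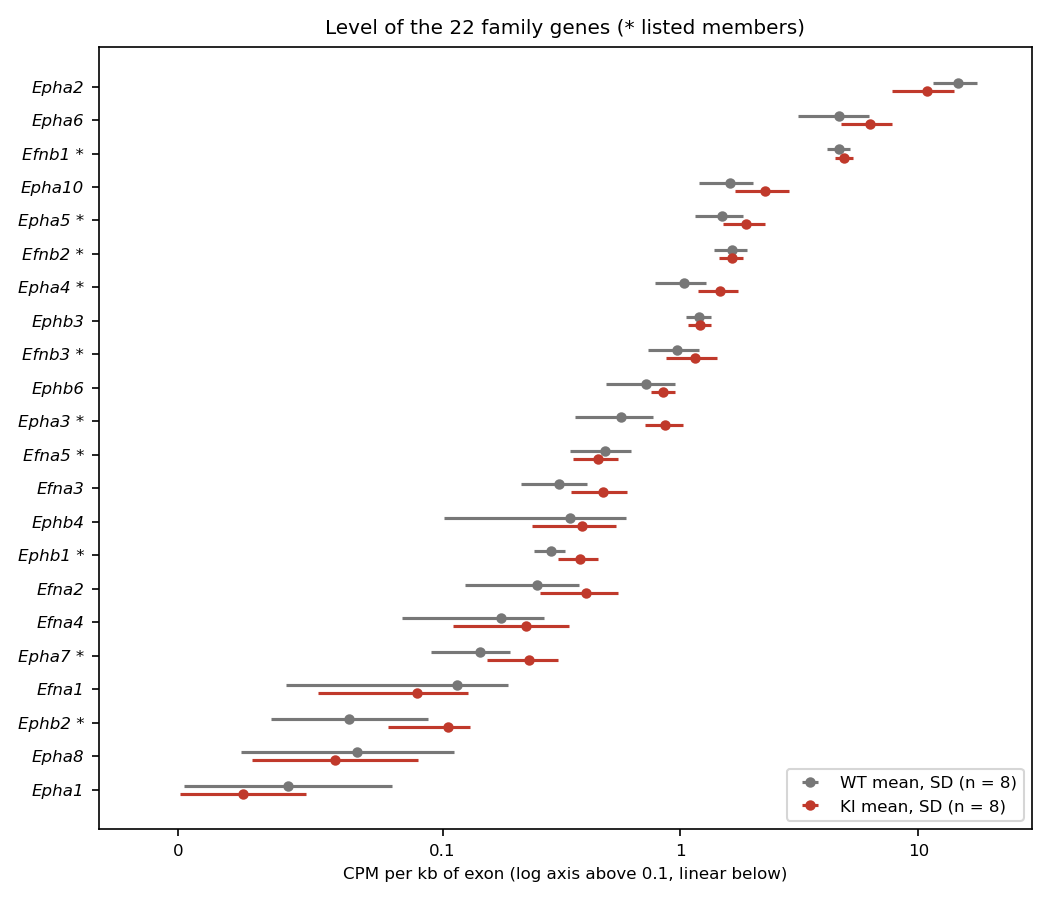
Mean level of the 22 Eph receptor and ephrin genes in CPM per kb of exon (x axis, logarithmic above 0.1 and linear below), with WT in grey and KI in red; points are means and bars SD over 8 libraries. Epha2, Epha6 and Efnb1 lead, at 12.7, 5.45 and 4.76 CPM per kb over all libraries, and Epha7 and Ephb2 are the lowest of the 10 genes marked with an asterisk.

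Positions are from GRCm39. The receptors are long genes: Epha3 (ENSMUSG00000052504) spans chr16:63363897-63684538 on the minus strand, 21.1 Mb from App, Epha4 (ENSMUSG00000026235) spans chr1:77343822-77492816, Epha7 (ENSMUSG00000028289) chr4:28813034-28967507 and Ephb1 (ENSMUSG00000032537) chr9:101799327-102231898. Efnb1 (ENSMUSG00000031217) is compact, at chrX:98179680-98205454. The 200 bases before the canonical start were searched on both strands for the GC box GGGCGG, for TATAAA and for the E-box CANNTG. A GC box was found in 4 of the 10 windows (Epha4, Epha7, Efna5 and Efnb2), against 35.0% of 21603 protein-coding promoters, TATAAA in 1 (Efnb2; 9.56% of all) and an E-box in 2 (Epha7 and Efnb2; 55.9% of all). Of the genes called higher between genotypes, Epha4 and Epha7 had a GC box and Epha3 had none. The windows of 4 genes that hold no annotated exon are shown from 5′ to 3′ on the gene's strand, a receptor called higher in KI (Epha3), a receptor that was not called (Ephb1) and a pair of ligands that were not called, with GC boxes of either strand in capitals.
Epha3, chr16:63684539-63684738, minus strand: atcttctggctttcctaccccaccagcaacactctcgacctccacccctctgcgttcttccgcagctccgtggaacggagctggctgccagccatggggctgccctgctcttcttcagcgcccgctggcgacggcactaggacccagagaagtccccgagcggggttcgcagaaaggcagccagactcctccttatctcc
Ephb1, chr9:102231899-102232098, minus strand: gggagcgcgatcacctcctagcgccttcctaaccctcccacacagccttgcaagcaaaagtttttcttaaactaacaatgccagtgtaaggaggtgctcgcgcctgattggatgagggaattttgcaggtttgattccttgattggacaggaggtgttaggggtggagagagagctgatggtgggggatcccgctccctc
Efna5, chr17:63188313-63188512, minus strand: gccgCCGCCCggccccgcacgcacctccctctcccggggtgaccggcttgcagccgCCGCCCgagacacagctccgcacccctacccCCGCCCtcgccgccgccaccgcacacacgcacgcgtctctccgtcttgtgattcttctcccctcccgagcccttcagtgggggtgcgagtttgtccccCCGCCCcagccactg
Efnb1, chrX:98179480-98179679, plus strand: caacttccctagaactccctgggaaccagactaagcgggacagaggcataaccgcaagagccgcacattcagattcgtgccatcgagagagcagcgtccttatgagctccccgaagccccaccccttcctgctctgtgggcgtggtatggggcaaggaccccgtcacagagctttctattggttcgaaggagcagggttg
The Efna5 window was 74% G and C, with 4 GC boxes and 23 CG dinucleotides, against a median of 7 CG over all promoters. The Epha3 window was 63.5% G and C with 12 CG and no GC box, Efnb1 58% with 10 CG and none, and Ephb1 53.5% with 6 CG and none. A match is a description of the sequence and not a site of binding.

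Of the 6 receptors, Epha3, Epha4 and Epha7 rose in KI microglia preparations, and none of the 4 ephrins passed the test. Genotype was tested with sex as an additive term in edgeR's quasi-likelihood test over all tested genes, and the threshold for a call was a false discovery rate (FDR, by Benjamini and Hochberg) below 0.1 together with an absolute log2 fold change (log2FC) above 0.5. Thus 3 of the 10 genes were called higher and 0 lower (0 lower at an unadjusted p below 0.05, and 0 lower in DESeq2 and limma voom). Of all tested genes 4.33% were called higher and 4.3% lower, 8.64% in all. By the FDR alone, 4 of the 10 passed, all higher, against 6.95% of genes higher. All 6 receptors had a log2FC above 0, with a median of 0.58 and 6 at an unadjusted p below 0.05 (24.1% of all genes, 12.3% with a rise). The 4 ephrins had a median of 0.03, 2 of them above 0, with 0 called and 0 at an unadjusted p below 0.05 in edgeR, DESeq2 and limma voom. Whether receptors and ephrins differ from each other was not tested. The median of all tested genes was 0.00 (-0.0014), with 49.6% above 0. In bulk libraries fewer cells of a type and less RNA per cell cannot be told apart. Replicates are known only by their labels, so p-values measure the spread between these libraries. In none of the 10 genes were the ranges of the 8 WT and 8 KI libraries separate, which occurred in 1.29% of genes.

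**Figure D2:**
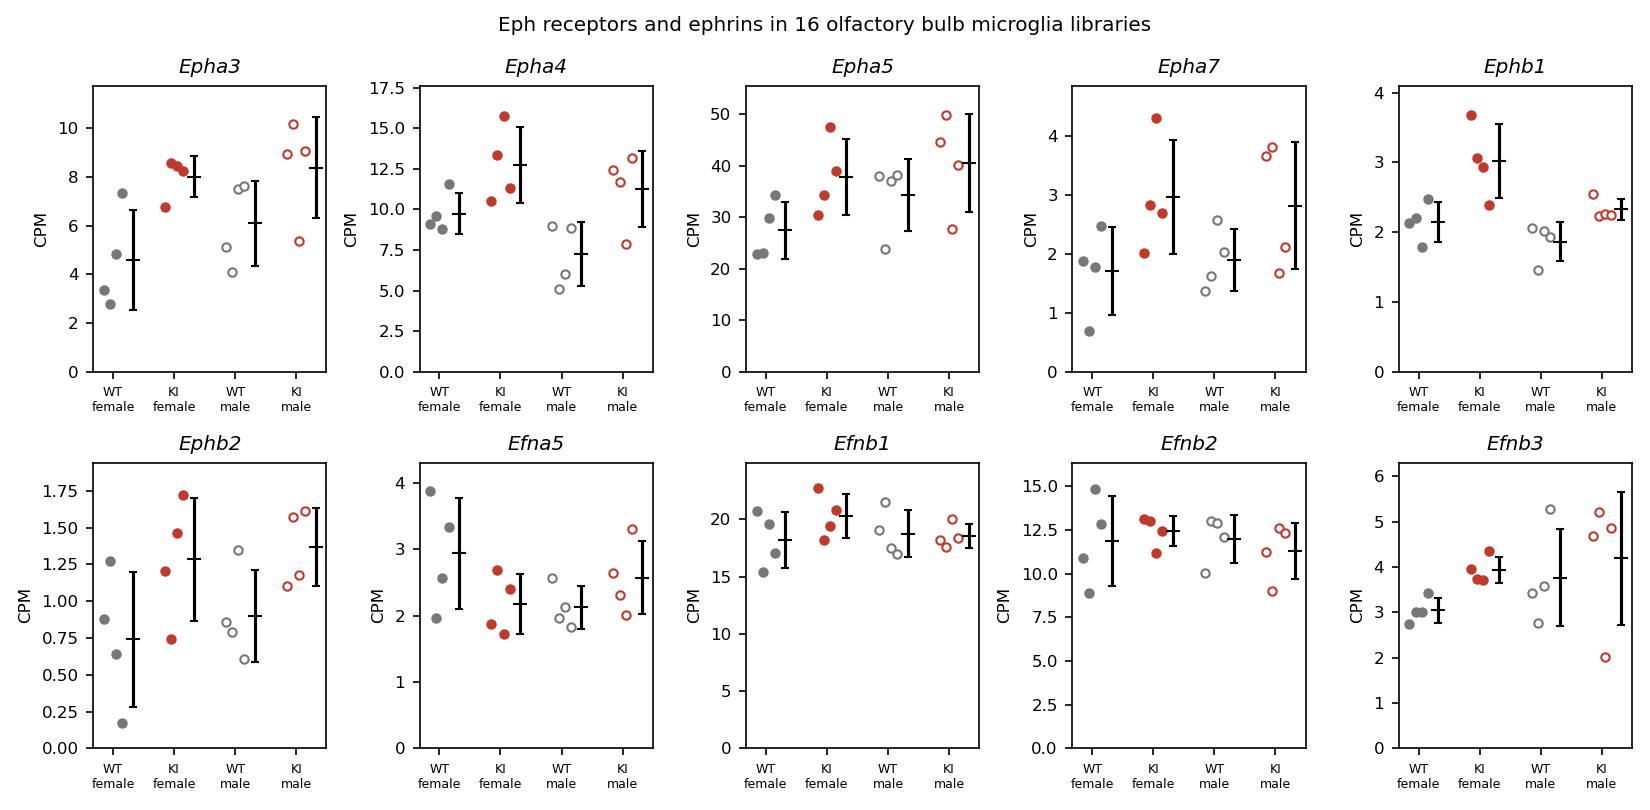
CPM (y axis, linear from 0) of the 10 genes in each library, with WT in grey, KI in red, females filled and males open; the black bar beside each group of 4 is the mean and SD. The red points of Epha3, Epha4, Epha7 and Ephb1 lie mostly above the grey points, and those of Efnb1 and Efnb2 share their range.

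Epha3, a receptor for A-type ephrins, measured 3.38, 2.77, 4.85 and 7.35 CPM in WT females and 5.14, 4.11, 7.51 and 7.62 CPM in WT males. In KI females it measured 6.76, 8.58, 8.44 and 8.23 CPM and in KI males 8.93, 10.2, 5.37 and 9.06 CPM. All 8 KI libraries lay above the WT median and 6 above the highest WT library, and KI male replicate 3 was the lowest KI library. The means were 5.34 ± 1.93 CPM in WT and 8.19 ± 1.49 CPM in KI (SD, n = 8 each), a log2FC of 0.64 ± 0.19 (SE; edgeR FDR = 0.0368). Its counts were 24 to 129 per library.

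Epha4, the receptor that binds both ephrin classes, measured 9.07, 9.60, 8.78 and 11.53 CPM in WT females and 8.99, 5.12, 6.05 and 8.84 CPM in WT males. KI females had 10.5, 13.4, 15.8 and 11.3 CPM and KI males 12.4, 11.7, 7.89 and 13.1 CPM. The lowest values were those of WT male replicates 2 and 3, and 7 of 8 KI libraries exceeded the WT median, KI male replicate 3 being the exception. From 8.50 ± 2.02 to 12.01 ± 2.30 CPM, Epha4 rose by a log2FC of 0.51 ± 0.14 (edgeR FDR = 0.0239), close to the threshold of 0.5. Accordingly, the call was lost on leaving out any of 5 libraries (WT male replicate 2 or 3, KI female replicate 3, KI male replicate 1 or 4), with log2FC of at least 0.44 throughout.

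Epha7, a further EphA receptor of developing axons, was sparse, with 6 to 50 counts per library. It measured 1.88, 0.694, 1.78 and 2.48 CPM in WT females, 1.37, 1.63, 2.58 and 2.03 CPM in WT males, 2.01, 2.84, 4.31 and 2.69 CPM in KI females and 3.66, 3.81, 1.68 and 2.11 CPM in KI males. WT female replicate 2 was the lowest library and 5 KI libraries exceeded every WT library. The rise from 1.81 ± 0.605 to 2.89 ± 0.951 CPM gave a log2FC of 0.66 ± 0.24 (edgeR FDR = 0.0846), and the gene was called in 6 of 16 fits with 1 library left out.

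Epha5, the most abundant EphA receptor of the 10 genes, had a lowest, median and highest level of 22.9, 32.1 and 38.3 CPM in WT and 27.7, 39.6 and 49.8 CPM in KI. Although 5 KI libraries exceeded every WT library, the log2FC of 0.35 ± 0.13 missed the FDR threshold (edgeR FDR = 0.104). Ephb1 ran from 1.46 over a median of 2.04 to 2.48 CPM in WT and from 2.23 over 2.47 to 3.68 CPM in KI. All 8 KI libraries lay above the WT median and 7 WT libraries below 2.23 CPM, the lowest KI library. Its log2FC of 0.42 ± 0.13 passed the FDR (edgeR, 0.0577) but not the fold threshold. Ephb2, a receptor of excitatory synapses that clusters with NMDA receptors, was near the limit of detection, at 0.171, 0.822 and 1.34 CPM in WT and 0.746, 1.33 and 1.72 CPM in KI (lowest, median, highest), from 2 to 23 counts. It had the largest log2FC of the 10, 0.72 ± 0.27, just outside the FDR threshold (edgeR FDR = 0.103), and was called by DESeq2 (FDR = 0.0805), by limma voom (FDR = 0.082), with upper quartile scaling (FDR = 0.0968) and with a filter of 10 counts (FDR = 0.0941).

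Of the 4 ligands among the 10 genes, none reached an unadjusted p below 0.05 in edgeR. Efna5, the lipid-anchored ligand of EphA receptors, had a lowest, median and highest level of 1.83, 2.35 and 3.88 CPM in WT and 1.72, 2.36 and 3.30 CPM in KI, a log2FC of -0.10 ± 0.18 (edgeR FDR = 0.81; 95% interval -0.48 to 0.29). Efnb1 ran from 15.4 over 18.3 to 21.5 CPM in WT and from 17.6 over 18.9 to 22.7 CPM in KI. With 133 to 382 counts per library it was the most precisely measured of the 10, and its log2FC of 0.06 ± 0.08 had a 95% interval of -0.09 to 0.22 (edgeR FDR = 0.669). Efnb2, the B-type ligand known from arterial endothelium, had means of 11.9 ± 1.90 and 11.9 ± 1.35 CPM and a log2FC of -0.01 ± 0.10 (edgeR FDR = 0.965; 95% interval -0.22 to 0.20). For Efnb1 and Efnb2, a change of the size of the fold threshold therefore lay outside the interval. Efnb3, a neuronal B-type ligand, had 2.75, 3.21 and 5.28 CPM in WT and 2.01, 4.14 and 5.21 CPM in KI. Its log2FC was 0.27 ± 0.17 (edgeR FDR = 0.362; 95% interval -0.09 to 0.63), and 7 of 8 KI libraries exceeded the WT median.

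**Figure D3:**
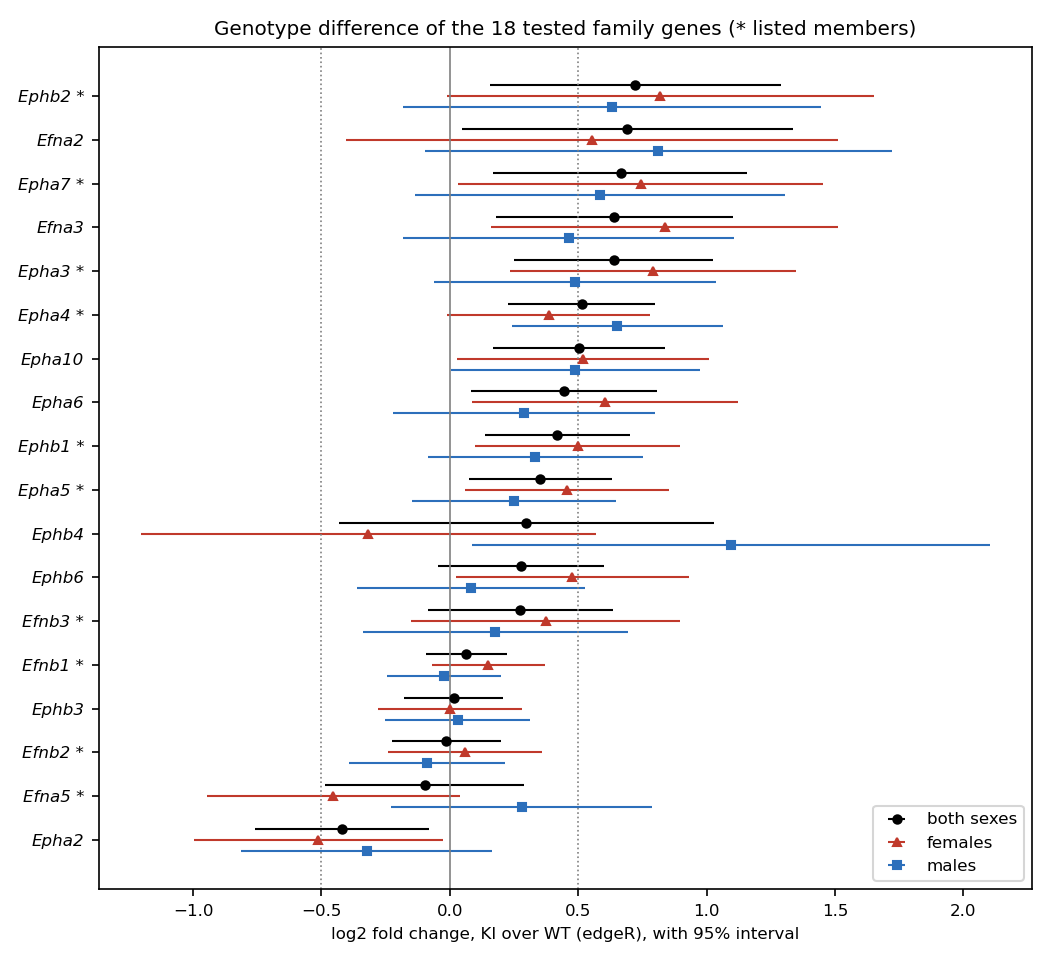
Log2FC of KI over WT (x axis) for the 18 tested family genes, ordered by the value over both sexes (black circles), with the values within females (red triangles) and within males (blue squares); bars are 95% intervals of the edgeR fit and dotted lines mark the fold threshold of 0.5. The 6 receptors marked with an asterisk lie between 0.35 and 0.72, and the 4 marked ephrins between -0.10 and 0.27.

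The remaining 12 genes of the family were taken from a list of all receptors and ephrins, and 8 of them could be tested. Of these, 2 were called higher and 0 lower, against 4.33% and 4.3% of all tested genes. DESeq2 and limma voom also called 0 lower. In each of the 3 tools 1 was lower at an unadjusted p below 0.05. Epha10, a receptor without kinase activity, rose from 14.1 ± 3.62 to 19.8 ± 5.02 CPM (log2FC 0.50 ± 0.16; edgeR FDR = 0.0557). Efna3, an A-type ligand, rose from 0.762 ± 0.236 to 1.17 ± 0.311 CPM (log2FC 0.64 ± 0.22; edgeR FDR = 0.0757). Both calls were sensitive to single libraries, holding in 9 and in 6 of 16 fits with 1 library left out, and DESeq2 did not call Efna3 (FDR = 0.113). Epha6 (24.6 ± 8.16 to 33.0 ± 7.94 CPM, log2FC 0.44, FDR = 0.117) and Efna2 (0.546 ± 0.274 to 0.875 ± 0.312 CPM, log2FC 0.69, FDR = 0.174) missed the FDR threshold. Ephb3 (log2FC 0.02), Ephb6 (0.28) and Ephb4 (0.30), a venous endothelial receptor, did so by more. Epha2 pointed downwards. It had 49.3, 70.4 and 93.1 CPM in WT and 33.0, 50.6 and 67.3 CPM in KI (lowest, median, highest), no KI library lay above the WT median, and the log2FC was -0.42 ± 0.16 (edgeR FDR = 0.114). Over the 18 tested genes of the family 5 were called higher, against 4.33% of all tested genes, and the median log2FC was 0.39.

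Genes annotated within the spans of the 10 were examined, since reads could be shared. Of 30 such genes, 19 were in the table, 4 were tested and 1 was called. E230020D15Rik, a transcript to be experimentally verified at chr8:8679175-8685073, lies on the strand of Efnb2 inside its span and touches none of its exons. It had 0.684, 1.02 and 2.03 CPM in WT and 1.64, 2.12 and 2.76 CPM in KI (lowest, median, highest), a log2FC of 0.85 ± 0.22 (edgeR FDR = 0.0236), whereas Efnb2 itself had -0.01. A pair of like transcripts in the same span, Gm45073 (0.46, FDR = 0.299) and Gm45074 (0.68, FDR = 0.221), were not called, nor was the ribosomal RNA gene n-R5s88 within Ephb1 (0.11, FDR = 0.948). The 5 genes on the opposite strand that touch an exon of one of the 10 had at most 2 counts in any library.

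Beside the receptors and ligands, 48 signalling partners were listed, from adaptors and GTPase regulators to proteases. All 48 were tested, and 1 was called higher and 0 lower, against 4.33% and 4.3% of all tested genes. DESeq2 and limma voom also called 0 lower, and in each tool 6 were lower at an unadjusted p below 0.05. In either direction 13 of the 48 reached that p in edgeR, against 24.1% of all genes. The partners had a median log2FC of -0.01, and 23 were above 0. Nck2, an adaptor that links phosphorylated receptors to actin, rose from 4.62 ± 0.981 to 6.501 ± 1.616 CPM (log2FC 0.50 ± 0.17; edgeR FDR = 0.0694), a call that held in 7 of 16 fits with 1 library left out. By the FDR alone 3 partners were higher and 2 lower, against 1266 and 1426 of all 18227 tested genes. Sipa1l1, a Rap GTPase-activating protein of dendritic spines, had a log2FC of 0.26 ± 0.08 (FDR = 0.0527) and Anks1b, a neuronal adaptor, 0.43 ± 0.13 (FDR = 0.0487). Anks1, its broadly expressed relative that binds Eph receptors, had -0.18 ± 0.05 (FDR = 0.0375), and Rgs3, a G protein regulator that binds B-type ephrins, -0.42 ± 0.13 (FDR = 0.0482). Rgs3 had -0.75 in females and -0.07 in males, and Anks1 -0.25 and -0.10. Within females 0 of the 48 partners were called higher and 1 lower (7.15% of all genes were called). Within males 0 were called (0.252% of all genes), and 0 in the genotype-by-sex interaction (0.0274%). Adam10, the protease that sheds ephrins, averaged 330.2 ± 20.52 CPM in WT against 326 ± 23.11 CPM in KI (log2FC -0.02, FDR = 0.87).

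The course of each gene over the 16 libraries was compared with that of Epha4. Likeness was measured as the root mean square difference between log2 CPM values standardised over the 16 libraries, for which 0 means the same course. The 5 tested genes most like Epha4 were Ppp1r16b (0.407), which encodes a regulatory subunit of protein phosphatase, Robo1 (0.466), the Slit receptor of axon guidance, Panx2 (0.484), a pannexin channel, Slc12a8 (0.486) and Zcchc18 (0.499). The closest of the 10 was Ephb1 (0.73, rank 296 of the tested genes), followed by Epha5 (0.898) and Epha3 (0.934). Efnb1 (1.48) and Efnb2 (1.51) were the least alike. Since all share the libraries and their depth, these are descriptions without a test.

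**Figure D4:**
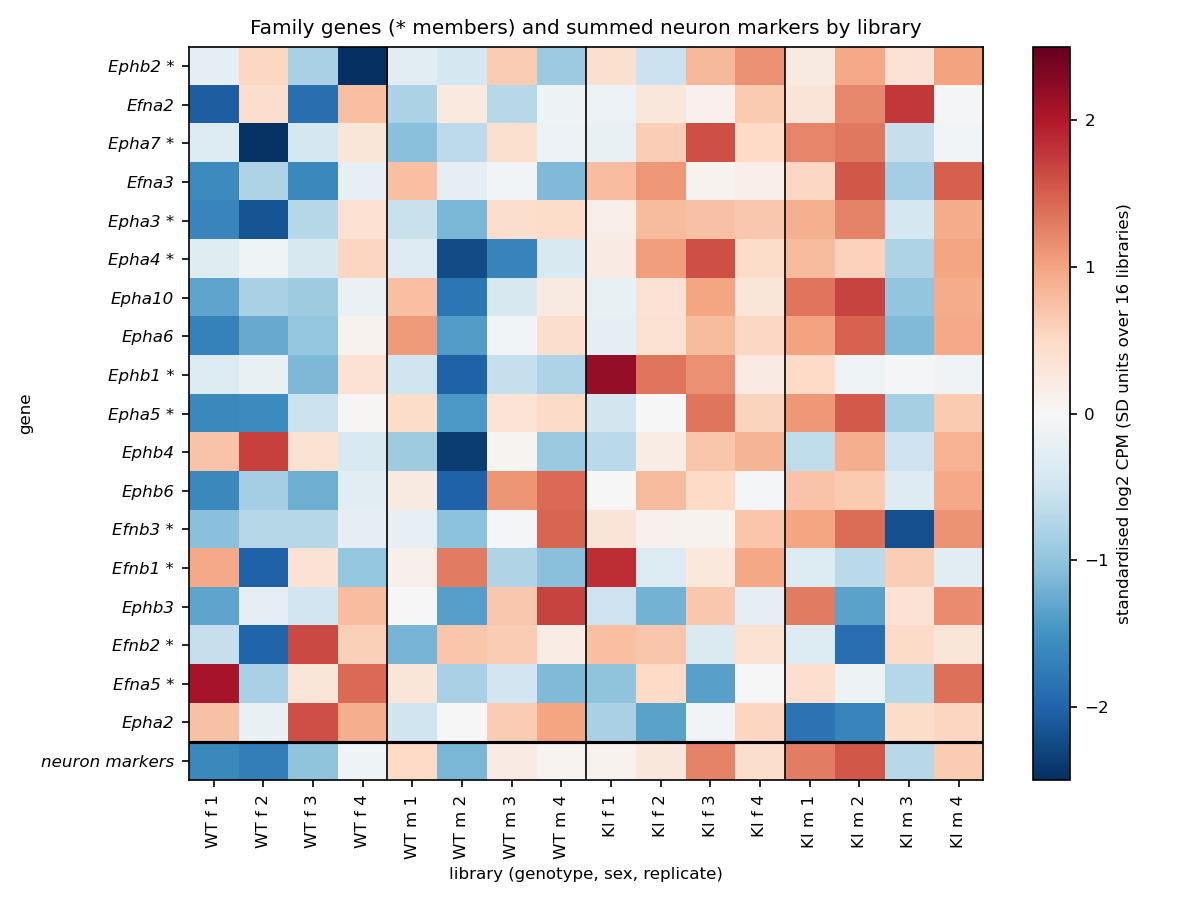
Log2 CPM of the 18 tested family genes, standardised over the 16 libraries (colour, in SD units, limited to 2.5 on either side), with genes ordered by log2FC and libraries by group; the bottom row is the summed level of the 10 neuron markers. Red cells gather in the KI columns for the upper genes, KI male replicate 3 is mostly blue there, and the neuron row runs between 383.9 CPM in WT female replicate 2 and 1112 CPM in KI male replicate 2.

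Markers of neurons and neuroblasts were higher in KI libraries too. The summed neuron markers had a median of 565.8 CPM in WT and 801.3 CPM in KI, a difference of 0.57 on the log2 scale (exact permutation of genotype within sex, 4900 splits, two-sided p = 0.0102, adjusted over the 13 marker lists 0.0442). The mean of log2 CPM, in which each marker counts alike, differed by 0.23 (exact permutation p = 0.0241). Meg3, a long noncoding RNA abundant in neurons, made up most of that sum (338.1 ± 130.1 CPM in WT, 546.5 ± 161.1 CPM in KI) and was the neuron marker called (1 of 10; log2FC 0.73; edgeR FDR = 0.0299). Snap25 (0.38) and Syt1 (0.43), proteins of synaptic vesicle fusion, and Eno2 (0.28) passed the FDR without the fold. Rbfox3 (0.32), Tubb3 (0.18), Nefm (0.08), Elavl4 (0.04), Nefl (0.01) and Stmn2 (-0.13) did not pass. Markers of bulb inhibitory neurons had medians of 260.2 and 354.9 CPM (exact permutation p = 0.00449, adjusted 0.0292), with Meis2 and Synpr called of 10, and neuroblast markers 96.45 and 119.9 CPM (exact permutation p = 0.00408, adjusted 0.0292), with Dcx, Dlx6os1 and Igfbpl1 called of 7. The other 4 neuroblast markers were Sox11 (log2FC 0.41), which passed the FDR without the fold, and Stmn1 (-0.13), Tubb2b (-0.06) and Cd24a (-0.0049), which did not pass. Oligodendrocyte markers (p = 0.0274) and those of their precursors (p = 0.0225) did not pass adjustment (0.0711 each, exact permutation), although Mog was called. In the same exact permutation test the lists for projection neurons (p = 0.767), astrocytes (0.223), ensheathing cells (0.207), endothelial cells (0.592), pericytes and fibroblasts (0.344), border macrophages (0.423) and monocytes and neutrophils (0.617) did not differ beyond the spread, nor did microglia (0.781). These tests were over both sexes. In females alone 8 of 10 endothelial markers were called lower in KI (median log2FC -1.02) and 3 of 8 astrocyte markers (median -0.58). So were 2 of 6 tested pericyte and fibroblast markers (median -0.57), against 790 of all 18227 tested genes. In males 1 endothelial marker was called higher (median 0.69), against 16 of all 18227 genes. Astrocyte markers (median 0.14, 0 at an unadjusted p below 0.05) and those of pericytes and fibroblasts (median 0.37) had 0 called in males. Oligodendrocyte markers had 0 called in either sex. At an unadjusted p below 0.05 there were 0 of 7 in females (median 0.16) and 7 of 7 in males (median 0.60), against 20.8% and 11.7% of all genes. Projection neuron markers had a median of 0.44 in females and -0.23 in males. Of them 0 were called in either sex, against 7.15% and 0.252% of all genes. Medians in females and males were 0.26 and 0.18 for neuron, 0.48 and 0.33 for inhibitory neuron and 0.45 and 0.39 for neuroblast markers.

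Of the receptors, Epha3, Epha5 and Epha7 rose with the neuron level of the library. In a fit with genotype, sex and the mean log2 CPM of the neuron markers, chosen after seeing the data, the slope per log2 unit was positive at an FDR below 0.1 for Epha5 (1.41 ± 0.26; FDR = 0.0169), Epha7 (2.14 ± 0.53; FDR = 0.0314) and Epha3 (1.43 ± 0.48; FDR = 0.0819), 3 of the 10 against 7.99% of all genes, while 0 of the 10 had a negative slope against 4.28%. Epha4 (0.79 ± 0.39; FDR = 0.213), Efnb3 (1.14 ± 0.50; FDR = 0.168), Ephb2 (0.40 ± 0.83; FDR = 0.805) and Ephb1 (0.22 ± 0.43; FDR = 0.826) did not pass. Efnb1 (-0.16), Efnb2 (-0.10) and Efna5 (-0.10) had slopes at or below 0 that did not pass either. With the neuron level in the model the genotype log2FC was 0.02 for Epha5, 0.15 for Epha7, 0.33 for Epha3 and 0.32 for Epha4. It was 0.37 for Ephb1 and 0.63 for Ephb2. None of the 10 was called, the lowest FDR being 0.399. Of all 18227 tested genes 42 were called higher in this fit, against 4.33% in the fit without the neuron level. The neuron level itself differed between genotypes by 0.23 (exact permutation p = 0.0241), so this fit does not fully separate it from genotype. Bulk counts cannot assign the reads of the 10 genes to a cell type.

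**Figure D5:**
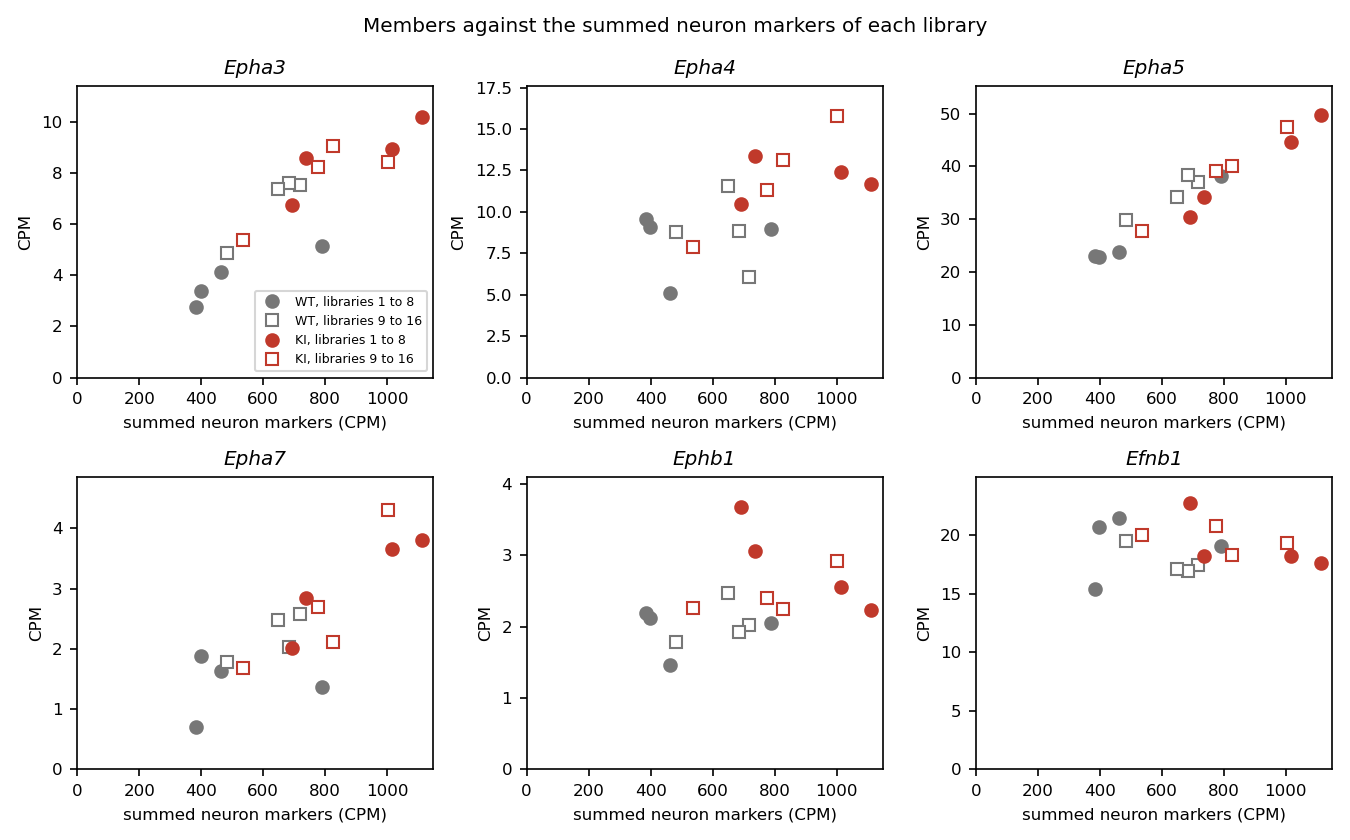
CPM of 6 of the 10 genes (y axis) against the summed CPM of the 10 neuron markers (x axis) in each library, with WT in grey and KI in red, libraries 1 to 8 as filled circles and 9 to 16 as open squares. Epha5 and Epha3 are higher in the library at 1112 CPM of neuron markers, which is KI, than in that at 383.9 CPM, which is WT. Ephb1 has its highest level, 3.68 CPM, at 691.5 CPM, and Efnb1 stays between 15.4 and 22.7 CPM.

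Within each sex the 6 receptors had a log2FC above 0. In the fit of the 4 groups, Epha3 was the 1 gene of the 10 called in females (log2FC 0.79 ± 0.26; edgeR FDR = 0.0907), against 7.15% of all genes called and 2.82% called higher. It was not called on leaving out any of 10 libraries (WT female replicates 1 to 3, WT male replicate 1, KI female replicates 1 to 4, KI male replicates 1 and 4), while leaving out WT female replicate 4 gave 3 called genes. At an unadjusted p below 0.05 there were 4 (20.8% of all genes). In males 0 of 10 were called, against 0.252% of all genes, with 1 at an unadjusted p below 0.05 (11.7% of all genes), Epha4 (0.65 ± 0.20; edgeR FDR = 0.187). On leaving out KI male replicate 3, 1 was called in males. The median of the 6 receptors was 0.62 in females and 0.54 in males. The genotype-by-sex interaction called 0 of 10 (0.0274% of all genes), with FDR of at least 0.813 in each. The 1 gene at an unadjusted p below 0.05 (5.94% of all genes) was Efna5, at -0.45 ± 0.23 in females and 0.28 ± 0.24 in males (edgeR interaction FDR = 0.813). Its female value was -0.27 without WT female replicate 1, and its male value 0.12 without KI male replicate 4. Outside the 10, Ephb4 had -0.32 ± 0.42 in females and 1.09 ± 0.48 in males (edgeR interaction FDR = 0.813). Its female value was 0.04 without WT female replicate 2 and -0.08 without KI female replicate 1, and its male value 0.73 without WT male replicate 2. Markers of endothelial cells, where Ephb4 is known to be expressed, summed to 103.9 to 233.6 CPM in WT females and 70.08 to 83.5 CPM in WT males. The KI sums were 91.31 to 112.55 CPM in females and 89.66 to 124.8 CPM in males. The part of these cells in the Ephb4 result was not tested. Females and males did not differ in any of the 10 by the same thresholds (0 of 10, 0.0604% of all genes). Epha4 (log2FC of females over males 0.29, edgeR FDR = 0.75) and Ephb1 (0.30, FDR = 0.746) had an unadjusted p below 0.05 (6.56% of all genes).

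The labels number the libraries from 1 to 16, and each genotype and sex has 2 libraries among numbers 1 to 8 and 2 among 9 to 16. The labels do not say what the numbers stand for. Among numbers 1 to 8, Epha3 was at 2.77 to 5.14 CPM in WT and 6.76 to 10.2 CPM in KI, without overlap. Among 9 to 16 it was at 4.85 to 7.62 and 5.37 to 9.06 CPM, with overlap. The log2FC was 1.16 ± 0.20 in the former and 0.21 ± 0.19 in the latter, and the difference, a test chosen after seeing the data, was -0.95 ± 0.27 (edgeR interaction FDR = 0.586). No gene of the table was called in that interaction (0%), with Epha3 the 1 of the 10 at an unadjusted p below 0.05 (8.02% of all genes). WT Epha3 averaged 3.85 CPM in the first set and 6.83 in the second, and KI 8.61 and 7.78 CPM. Epha4 differed little between the sets (0.58 ± 0.20 and 0.45 ± 0.20), whereas Epha7 had 1.07 ± 0.32 and 0.28 ± 0.32 and Ephb2 0.32 ± 0.37 and 1.17 ± 0.39. Summed neuron markers averaged 508.4 CPM in WT and 889.1 CPM in KI in the first set and 633.2 and 785.2 CPM in the second, and their part in this pattern was not tested. Fitted alone, numbers 1 to 8 called 5 of the 10 genes higher (8.1% of all genes) and numbers 9 to 16 called 0 (0.126% of all genes).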

How the data were processed

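CD11b-selected cells of the olfactory bulb were profiled by stranded total RNA-seq in 16 libraries of 4 groups. The authors mapped the read pairs with STAR (GRCm39, gencode annotation, human App included) and deposited raw read counts per gene, with no normalization. Which strand column was counted is not given in the sources used here. Groups and replicate numbers come from the sample titles.

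Counts were analysed in R 4.3.3 with edgeR 4.0.16, limma 3.58.1 and DESeq2 1.42.0. A gene was kept where 50% or more of the libraries reached 5 counts, which left 18227 of 57010 genes and 99.86% of the counts. CPM used TMM-scaled library totals, log2 CPM a prior count of 2, and levels per kb the union of annotated exons. Genotype was tested with sex as a term, and a fit of the 4 groups gave the contrasts within sex and their interaction. Standard errors were taken from the F statistic and the size of the log2 fold change. The procedure was tested on simulated data. The totals of 9052932 to 18117286 counts limit precision for genes under about 50 counts, such as Epha7 and Ephb2.

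The 10 members, the family, partner and cell type lists (microglia, neuron, bulb inhibitory and projection neuron, neuroblast, astrocyte, oligodendrocyte and precursor, endothelial cell, ensheathing cell, border macrophage, pericyte with fibroblast, monocyte with neutrophil) and the rules for naming genes were chosen with earlier results of these data known. 1 microglia marker of the original list is not reported here, and the microglia values leave it out. The named genes are the members and their family, partners called or of smallest p (Adam10 and Ephb4's endothelial markers were added after their values were seen), tested genes inside the members' spans, the 5 genes most like Epha4 and called markers. Promoter windows and positions come from GRCm39 with a later gencode release, matched by symbol. Alternatives were other scalings, DESeq2, limma voom, other filters and thresholds, no sex term, a replicate block, library number, a neuron covariate, and leaving out each library. No 2 libraries of a group agreed within sampling noise, the lowest chi-square per degree of freedom being 3.14.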

Additional observations from a re-analysis of the deposited data

Results flagged for a closer look

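For the 10 genes and the summed neuron and microglia markers, 48 groups of 4 libraries were screened with Dixon's ratio, the gap of the outermost library to its neighbour over the range of the group, and 3 stood out, against 2.4 given by chance. Epha5 was low in WT male replicate 2, at 23.85 CPM against 37.1 to 38.29 CPM in the other 3 males (gap 0.917 of the range). Ephb1 was high in KI male replicate 1, at 2.552 CPM against 2.234 to 2.267 CPM (0.896 of the range), from 30 counts against 27 to 32. Efnb3 was low in KI male replicate 3, at 2.015 CPM against 4.678 to 5.212 CPM (0.833 of the range). The summed neuron markers were 462.6 CPM in WT male replicate 2 and 535.5 CPM in KI male replicate 3, each the lowest of its group. In KI male replicate 1 they were 1015.5 CPM, inside the range of its group (535.5 to 1112.4 CPM). The part of the neuron markers in these values was not tested.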

How the results depend on the processing

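With a stricter FDR of 0.05, genes called higher fell from 790 to 468, family genes from 5 to 2 and partners from 1 to 0. Without a fold threshold 1266 genes were higher, 1426 lower and 3 partners higher. With the neuron level as a covariate 42 genes were higher and 254 lower, and 0 members, 0 family genes and 0 partners were called; Efnb2 turned to 0.00797. Libraries 1 to 8 alone called 1502 genes, 5 members, 8 family genes and 5 partners higher, and libraries 9 to 16 alone, a fit of 8 libraries too, called 23 genes higher, 57 lower and 0 members, family genes or partners; in libraries 1 to 8 Efnb1 was -0.0188 and Efnb2 0.086. On leaving out 1 library, 461 (WT female replicate 1) to 1312 (KI male replicate 3) genes were higher and 631 to 875 lower, with 1 to 4 members, 1 to 7 family genes and 0 to 4 partners higher, 0 members lower, 0 to 3 members called in females, 0 to 1 in males and 0 in the interaction. A single member was called without WT male replicate 2, KI female replicate 3 or KI male replicate 1, and 4 without KI male replicate 3. Efna5 (-0.191 to 0.0214) and Efnb2 (-0.0616 to 0.0446) changed sign in such fits, at FDR of 0.58 or more. Epha3 was called in 16 of 16 such fits (0.56 to 0.77).

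Whether replicate numbers pair the libraries was left unsettled. Same-number correlations ran from -0.33 to 0.292, with a median of 0.0339 against -0.0295 for different numbers. Of 16 libraries, 8 correlated best with their own number. With a replicate block 773 genes were higher, Epha7 lost its call (0.67, FDR = 0.111) and partners fell to 0. Of 539 values of single genes under other settings or without a library, 445 kept direction and call, 64 lost the call, 18 gained it and 12 changed sign. Scalings moved the median of all genes by at most 0.0124. Depth limits sparse genes such as Ephb2, Epha7, Efna2 and Efna3, and 4 family genes were too low to test.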
